A study of Mus musculus with 4 samples.

Results

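The circadian clock genes described here are the 10 genes Arntl, Clock, Per1, Per2, Per3, Cry1, Cry2, Nr1d1, Nr1d2 and Dbp. They were taken by symbol from a deposited table of 24421 rows, and all 10 were found in it. Their levels came from 4 polyA RNA-seq libraries, each from a single C57BL/6 mouse of 8 weeks. Mice WT-139 and WT-140 carried an intact Usp25 gene (Usp25+/+), and mice KO-826 and KO-850 lacked it (Usp25-/-). Both genotypes were given 2.5% dextran sulfate sodium (DSS), an agent that injures the gut lining, over 5 days and then normal water over 2 days. There was thus no untreated group, and how the Usp25 allele was made is not given in the sources used here. The hour at which the mice were killed is not given either. The comparison asks how transcript levels after DSS differ between mice with and without Usp25, a protease that removes ubiquitin from other proteins.

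The mammalian clock is a feedback loop of transcription that runs with a period of about a day in most cells. ARNTL (also called BMAL1) pairs with CLOCK and activates genes that carry an E-box, among them the Per and Cry genes, whose proteins return to the nucleus and repress the pair. NR1D1 and NR1D2 (REV-ERB alpha and beta) repress Arntl through the ROR element, and DBP, an output of the loop, activates genes through the D-box. In many tissues Arntl and Dbp peak at nearly opposite times of day, and the gut and its immune cells both run such clocks.

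Stretches of DNA ahead of Per1, Cry1, Per3 and Ciart are shown because they carry the letters through which the arms of the loop are known to act on each other. The sequences are from RefSeq in build GRCm38.p6, written 5′ to 3′ on the strand of the gene, and the capitals mark an E-box (CACGTG) or a D-box (TTATGTAA on either strand). These cover the 250 bases before the annotated start site. The last is a 30-base site in Arntl whose capitals mark a ROR element (TAGGTCA).
Per1, chr11:69098699-69098948, plus strand: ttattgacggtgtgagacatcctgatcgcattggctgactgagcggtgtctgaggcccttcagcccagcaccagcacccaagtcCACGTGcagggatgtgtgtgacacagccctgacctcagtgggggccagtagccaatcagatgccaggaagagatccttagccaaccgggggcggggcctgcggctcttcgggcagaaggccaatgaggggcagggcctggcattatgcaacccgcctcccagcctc
Cry1, chr10:85185055-85185304, minus strand: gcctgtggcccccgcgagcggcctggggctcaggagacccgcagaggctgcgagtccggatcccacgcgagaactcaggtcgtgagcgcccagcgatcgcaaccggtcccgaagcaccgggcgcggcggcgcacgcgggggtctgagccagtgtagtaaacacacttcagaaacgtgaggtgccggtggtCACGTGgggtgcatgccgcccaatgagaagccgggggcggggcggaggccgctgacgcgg
Per3, chr4:151044666-151044915, minus strand: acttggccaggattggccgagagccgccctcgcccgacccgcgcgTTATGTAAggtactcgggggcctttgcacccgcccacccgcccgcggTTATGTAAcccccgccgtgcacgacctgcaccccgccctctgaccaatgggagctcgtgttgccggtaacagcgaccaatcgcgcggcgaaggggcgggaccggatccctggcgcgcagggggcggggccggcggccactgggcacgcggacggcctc
Ciart, chr3:95882229-95882478, minus strand: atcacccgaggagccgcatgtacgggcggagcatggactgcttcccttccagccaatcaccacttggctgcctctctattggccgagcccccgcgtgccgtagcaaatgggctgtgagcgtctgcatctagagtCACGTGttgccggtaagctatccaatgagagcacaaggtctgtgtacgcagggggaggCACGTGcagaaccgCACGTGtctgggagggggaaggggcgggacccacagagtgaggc
Arntl, chr7:113207530-113207559, plus strand: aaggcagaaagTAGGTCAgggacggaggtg

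Promoter windows of 300 bases, from 250 before to 50 after the start site, were matched for 9 of the 10 genes, all but Per2. There were 13 such windows, because some genes have more than 1 annotated start. Within them the E-box letters were found for 2 genes, Per1 at 166 and Cry1 at 60 bases before the start. The D-box letters were found for Per3 alone, with matches at 205 and 158 bases before the start, and the ROR element letters for Arntl alone, 30 bases after it. Per1 and Arntl each had another window, at another annotated start, that held none of these letters. Over all 32851 such windows of the mouse genome, 7.15% held the E-box letters, 0.938% the D-box letters and 2.61% the ROR element letters. Counted by gene, as for the 9, these were 2187, 299 and 802 of 27025 genes, in the order given. A match describes these letters only and is not evidence that a factor bound there. Ciart, a repressor of ARNTL and CLOCK outside the group of 10, is shown because its window held 3 E-boxes and its level is described below.

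Before the results, some facts of the libraries bear on every value. Levels are FPKM, fragment numbers corrected for the length of the transcript and the size of the library, and the sequencing depth is unknown. Usp25 followed the labels, with 38.5 and 16.6 FPKM where it is intact against 2.65 and 1.71 FPKM where it is deleted. Several defining markers of the labelled tissue, colon, were absent: of 15 colon epithelium genes, 10 stayed below 1 FPKM in all 4 mice and Zg16, Aqp8 and Cdx1 were listed at 0 throughout. The colon list summed to between 205 and 412 FPKM, mostly through Car4 at 193 to 399 FPKM, and Lgals4 and Krt20 reached 70.6 and 52.4 FPKM in mouse KO-826. A list of 14 lung epithelium genes summed to between 2425 and 5513 FPKM. Mouse WT-139 stood apart through neutrophil transcripts, with a sum of 48276 FPKM over 14 marker genes against 873 FPKM in mouse WT-140, 2290 FPKM in KO-826 and 1400 FPKM in KO-850. In bulk tissue, fewer cells of a type and less RNA per cell cannot be told apart.

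All 10 clock genes were detected, and none differed between the genotypes past the threshold. A gene was tested when it reached 1 FPKM in at least 2 mice, which all 10 did, and levels were compared as log2(FPKM + 1). The added 1 makes differences of weakly expressed genes look smaller. Limma called 0 of the 10 at a Benjamini-Hochberg adjusted p of 0.05, where it called 0% of the 12103 genes tested. The adjusted p of the 10 genes ran from 0.968 to 0.999. Usp25 itself, the deleted gene, had a limma adjusted p of 0.968, so such a value does not show that a difference is absent. At an unadjusted p under 0.05 there was 1 of the 10 genes, Per1, against 3.3% of all genes tested. The median log2 difference, Usp25-/- minus Usp25+/+, was -0.01 over the 10 genes and 0.03 over all genes tested, with 5 of the 10 positive and 5 negative. For 2 of the 10, Arntl and Per1, the genotypes did not overlap, against 33.7% of all genes tested, so this count is no result about the clock genes. Both were lower in Usp25-/-, the direction of 14.7% of all genes, and 0 were higher, against 19%.

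Per1 was the most abundant of the 10 transcripts per length, with a mean of 28.6 FPKM over the mice, and it ranked first in each of the 4. Cry1, Nr1d1 and Nr1d2 followed with means of 9.45, 8.69 and 7.77 FPKM. Per2 and Clock had 5.01 and 4.54 FPKM, Arntl 3.92 FPKM, and Cry2 and Dbp 3.48 FPKM each. Per3 was the lowest, at 1.16 FPKM. The ranges of all neighbours in this order overlapped, also at the top, where the lowest mouse for Per1, at 17.9 FPKM, was under the highest for Cry1, at 18.7 FPKM.

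**Figure D1:**
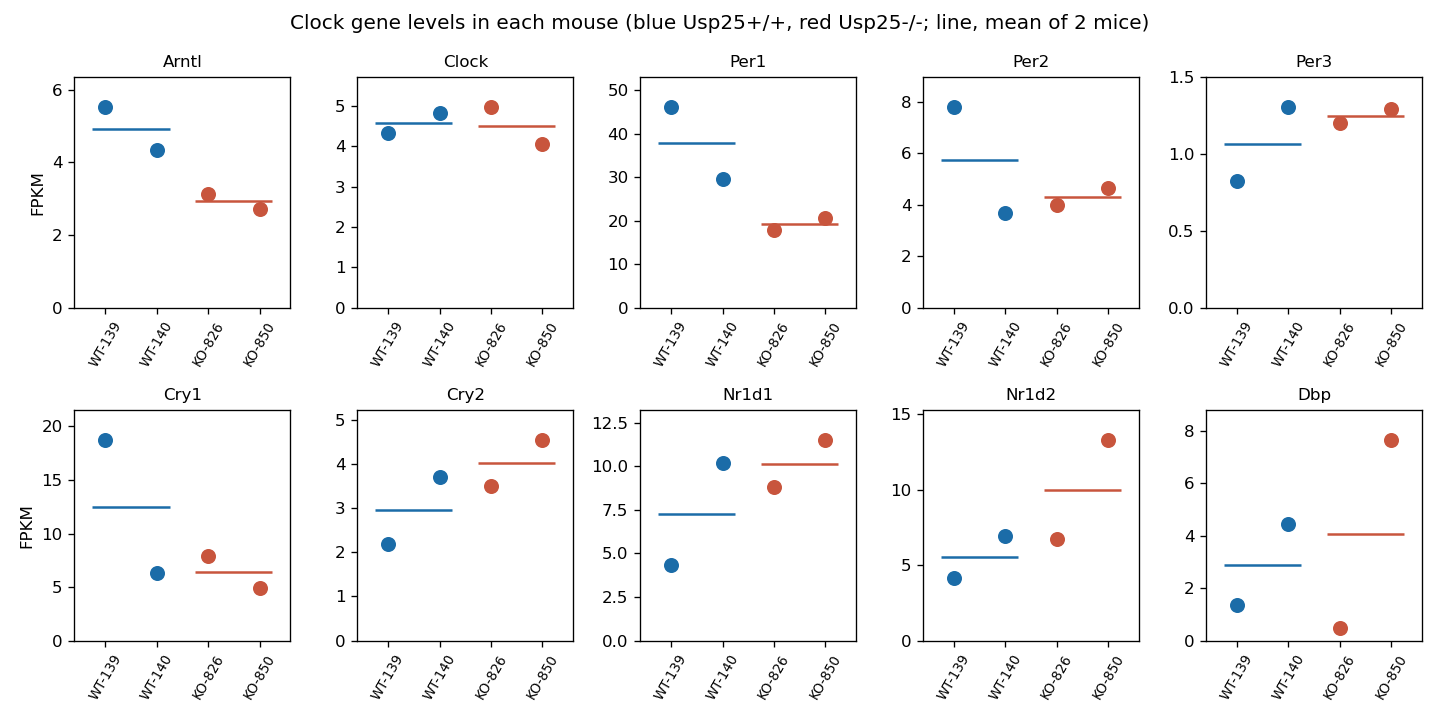
Level of each of the 10 clock genes in FPKM on a linear axis from 0, with 1 point for each mouse (blue Usp25+/+, red Usp25-/-) and a line at the mean of the 2 mice of a genotype. Arntl and Per1 are the genes whose genotypes do not overlap, and Dbp runs from 0.491 to 7.64 FPKM within the Usp25-/- mice alone.

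The activators Arntl and Clock differed in how they varied. Arntl, on chromosome 7 from 120350979 to 120457636 (mm9, plus strand), was measured at 5.51 and 4.33 FPKM in mice with Usp25 and at 3.14 and 2.71 FPKM in mice without it. Both Usp25-/- values were below both Usp25+/+ values, with means of 4.92 ± 0.840 and 2.93 ± 0.301 FPKM (SD, n = 2), a 1.68-fold difference. On the log2 scale this was -0.59 ± 0.30 (SE), with a 95% interval from -1.34 to 0.17 and a limma adjusted p of 0.968. Its direction was kept when any single mouse was left out, with values from -0.73 to -0.44. Clock, on chromosome 5 from 76639992 to 76733817 (minus strand), was the steadiest of the 10 genes. It stood at 4.32 and 4.82 FPKM against 4.97 and 4.05 FPKM, so that its highest and lowest mice were both Usp25-/-. Its highest value was 1.23 times its lowest, and 96.0% of all tested genes had a wider range on the log2 scale. The interval of its log2 difference, from -0.75 to 0.71, still allows changes of moderate size.

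Among the other genes that can serve the positive arm, Npas2, a relative of Clock that can pair with ARNTL, was too low to test. It reached 1.07 and 0.386 FPKM with Usp25 intact, was at 0.475 FPKM in mouse KO-826 and was listed at 0 in mouse KO-850. Arntl2, a paralogue of Arntl, was at 1.63 FPKM in mouse WT-139, listed at 0 in mouse WT-140 and at 2.67 and 0.914 FPKM in the Usp25-/- mice. Its groups overlapped. Rora, an activator that competes with NR1D1 and NR1D2 for the ROR element, varied little, at 1.88 and 2.23 against 1.89 and 2.46 FPKM.

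The period genes encode the repressors that accumulate and shut the loop down, and they did not move as a group. Per1 (chromosome 11 from 68908719 to 68923462, plus strand) is also induced quickly by glucocorticoids and by signals that induce immediate early genes. Its level was 46.1 FPKM in mouse WT-139 and 29.6 FPKM in WT-140, against 17.9 FPKM in KO-826 and 20.7 FPKM in KO-850. The genotypes did not overlap, with mouse WT-139 the highest and mouse KO-826 the lowest. The means were 37.8 ± 11.7 and 19.3 ± 1.93 FPKM (SD, n = 2), a 1.96-fold difference, and the log2 difference was -0.90 ± 0.34 (SE) with a 95% interval from -1.76 to -0.05. Limma gave an adjusted p of 0.968 and an unadjusted p of 0.0424. The log2 difference was -0.59 without mouse WT-139 (limma adjusted p = 0.758) and -1.22 without mouse WT-140 (limma adjusted p = 0.102).

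The summed level of immediate early transcripts ranked the 4 mice in the order of Per1, and 4 of the 14 genes of that list did so one by one. The share of all genes tested with this order is not given here, so the count cannot be set against it. The list summed to 3926 and 3306 FPKM with Usp25 intact and to 2752 and 2855 FPKM without it. Limma called 0 of the 14, 13 had negative log2 differences, and for 8 the genotypes did not overlap, all lower in Usp25-/-, against 14.7% of all genes tested. Their most abundant members were Ier3, an early response gene of stressed cells, at 836 and 391 against 685 and 381 FPKM, and Fos, a subunit of AP-1, at 608 and 629 against 417 and 569 FPKM. Fos had its lowest level in mouse KO-826, as Per1 did, whereas Ier3 overlapped between the genotypes. A list of 15 glucocorticoid-responsive genes had another order by its sums, which were 9727 and 2806 against 3869 and 2636 FPKM. Of its 14 tested members, 1 had the order of Per1, and limma called 0. The largest part of the sum of mouse WT-139 was Lcn2, a neutrophil product, at 5537 FPKM. The part of either list in the level of Per1 was not tested.

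Per2 and Per3 did not separate the genotypes. Per2 (chromosome 1 from 93312561 to 93355907, minus strand) stood at 7.78 and 3.65 FPKM against 3.99 and 4.64 FPKM. Mouse WT-139 was highest and mouse WT-140 lowest, so the Usp25+/+ mice enclosed the others, and the log2 difference of -0.27 became 0.19 without mouse WT-139. Per3 (chromosome 4 from 150377761 to 150418774, minus strand) stood at 0.822 and 1.31 FPKM against 1.20 and 1.29 FPKM. It is the gene with the pair of D-boxes printed above. At this level the pseudocount of 1 FPKM compresses differences, and its log2 difference of 0.13 has an interval from -0.69 to 0.96.

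The cryptochromes, partners of the PER proteins and the direct repressors of CLOCK and ARNTL, ranked the mice in opposite ways. Cry1 (chromosome 10 from 84594447 to 84647799, minus strand) gave 18.7 and 6.33 FPKM in the mice with Usp25, and 7.87 and 4.89 FPKM in those without. Mouse WT-139 alone was high, and the other 3 mice overlapped between the genotypes. The log2 difference of -0.73 ± 0.55 (SE) was -0.02 without mouse WT-139 and -1.45 without mouse WT-140. Cry2 (chromosome 2 from 92243803 to 92274200, minus strand) stood at 2.20 and 3.70 FPKM against 3.49 and 4.54 FPKM, lowest in mouse WT-139 and highest in mouse KO-850. Cry1 was therefore 8.52 times Cry2 in mouse WT-139, 1.71 times in WT-140, 2.25 times in KO-826 and 1.08 times in KO-850. In every mouse Cry1 was the higher of the pair.

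Nr1d1 and Nr1d2, the nuclear receptors that repress Arntl, were lowest in mouse WT-139 and highest in mouse KO-850. Nr1d1 (chromosome 11 from 98629246 to 98636647, minus strand) had 4.31 FPKM in mouse WT-139 and 10.2 FPKM in WT-140, against 8.80 FPKM in KO-826 and 11.5 FPKM in KO-850. Mouse WT-140 lay between the Usp25-/- mice, so the groups overlapped. Its log2 difference was 0.52 ± 0.44 (SE), and -0.02 without mouse WT-139. Of the exonic bases of Nr1d1, 8.42% overlap Thra on the opposite strand, and whether counting used strand is not known. Thra, a thyroid hormone receptor, had 4.21 and 5.66 FPKM with Usp25 intact and 3.70 and 5.86 FPKM without it, a narrower spread than that of Nr1d1. Mice WT-140 and KO-850 were the higher ones for both genes. The part of overlapping reads in the level of Nr1d1 was not tested. Nr1d2 (chromosome 14 from 19036568 to 19071641, minus strand) stood at 4.15 and 6.94 FPKM against 6.72 and 13.3 FPKM. Mouse KO-850 was the highest by a wide margin, and mouse KO-826 lay just under mouse WT-140. The log2 difference was 0.72 ± 0.43 (SE), with an interval from -0.38 to 1.81, and it was 0.27 without mouse KO-850.

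Dbp, a PAR bZIP transcription factor and one of the strongest outputs of the clock in many tissues, varied more between mice than any other of the 10 genes. It lies on chromosome 7 from 52960458 to 52965525 (plus strand). It measured 1.36 FPKM in mouse WT-139, 4.43 FPKM in WT-140, 0.491 FPKM in KO-826 and 7.64 FPKM in KO-850. The lowest and the highest mouse were thus both Usp25-/-, and the highest value was 15.6 times the lowest. On the log2 scale the gap between the Usp25-/- mice was 2.53, and 0.306% of all tested genes had a larger one. The log2 difference between the genotypes was 0.00 ± 0.91 (SE), with a 95% interval from -2.31 to 2.32 and a limma adjusted p of 0.999. This sign depended on the pseudocount and the scaling, being -0.27 with a pseudocount of 0.1 FPKM and -0.08 with libraries rescaled to a common total. Of the exonic bases of Dbp, 16.7% overlap Sphk2, a sphingosine kinase gene on the opposite strand. Sphk2 stood at 7.75 and 7.05 against 4.67 and 6.46 FPKM, which is not the order of Dbp, though both were lowest in mouse KO-826. The part of overlapping reads in the level of Dbp was not tested.

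Tef and Hlf encode the other two PAR bZIP factors, which bind the same D-box as DBP. Tef was at 3.30 FPKM in mouse WT-139, 9.08 FPKM in WT-140, 4.67 FPKM in KO-826 and 9.47 FPKM in KO-850. As with Dbp, mice WT-140 and KO-850 were the higher ones and mice WT-139 and KO-826 the lower ones, so each genotype held 1 high and 1 low mouse. These were the higher mice for 5 of the 10 clock genes, namely Per3, Cry2, Nr1d1, Nr1d2 and Dbp. The share of all genes tested with this pattern is not given here. Hlf did not exceed 0.336 FPKM in any mouse and was not tested. Nfil3, a repressor that binds the D-box in competition with these activators, was abundant and even, at 167 and 185 FPKM against 176 and 123 FPKM. Bhlhe41, an E-box repressor, was high and low in the same mice as Tef, at 6.25 and 17.1 FPKM against 9.35 and 14.01 FPKM. Its paralogue Bhlhe40 was far higher and even, at 161 and 166 against 163 and 117 FPKM.

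The summed levels of several cell type marker lists were also higher in mice WT-140 and KO-850 than in the other two, among them endothelium. The 8 genes of that list summed to 99.2 FPKM in mouse WT-139, 224 FPKM in WT-140, 83.7 FPKM in KO-826 and 158 FPKM in KO-850. All 8 were tested, none was at 0, limma called 0, and mouse WT-140 was the highest for 8 of 8. For 7 of the 8 the higher mice were WT-140 and KO-850, and for Vwf they were the Usp25+/+ mice. The most abundant were Pecam1, an adhesion molecule of endothelium, at 28.7 and 56.6 against 22.6 and 44.4 FPKM, and Cldn5, a tight junction protein of vessels, at 20.8 and 64.3 against 24.7 and 40.1 FPKM. Divided by this sum, Tef was 0.0333 and 0.0406 in Usp25+/+ and 0.0558 and 0.0598 in Usp25-/- mice. Tef alone overlapped between the genotypes. All 8 genes of the divisor had negative log2 differences, with a median of -0.34, which raises the ratio in Usp25-/- mice. Division by a sum with the same higher mice also tends to narrow the gap within each genotype, so this is no test of where the RNA came from. No other list was used as a divisor, and Bhlhe41 was not divided. Dbp divided by the sum was 0.0137 and 0.0198 against 0.00587 and 0.0483, and the gap between the Usp25-/- mice remained wide. Lists of T and NK cells (27.5 and 85.7 against 52.7 and 88.3 FPKM), of B and plasma cells (140 and 160 against 123 and 143 FPKM), of smooth muscle (13.9 and 18.7 against 15.8 and 20.4 FPKM) and of fibroblasts (49.1 and 53.1 against 44.2 and 119 FPKM) had the same higher mice by their sums, and the pattern is not particular to endothelium. These mice were the higher ones for 6 of 8, 5 of 6, 2 of 3 and 2 of 7 tested genes of those lists, in the order given. Without the same share over all genes tested, these counts and that of endothelium cannot be set against it. The part of RNA from any of these cell types in the levels of Dbp, Tef and Bhlhe41 was not tested.

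**Figure D2:**
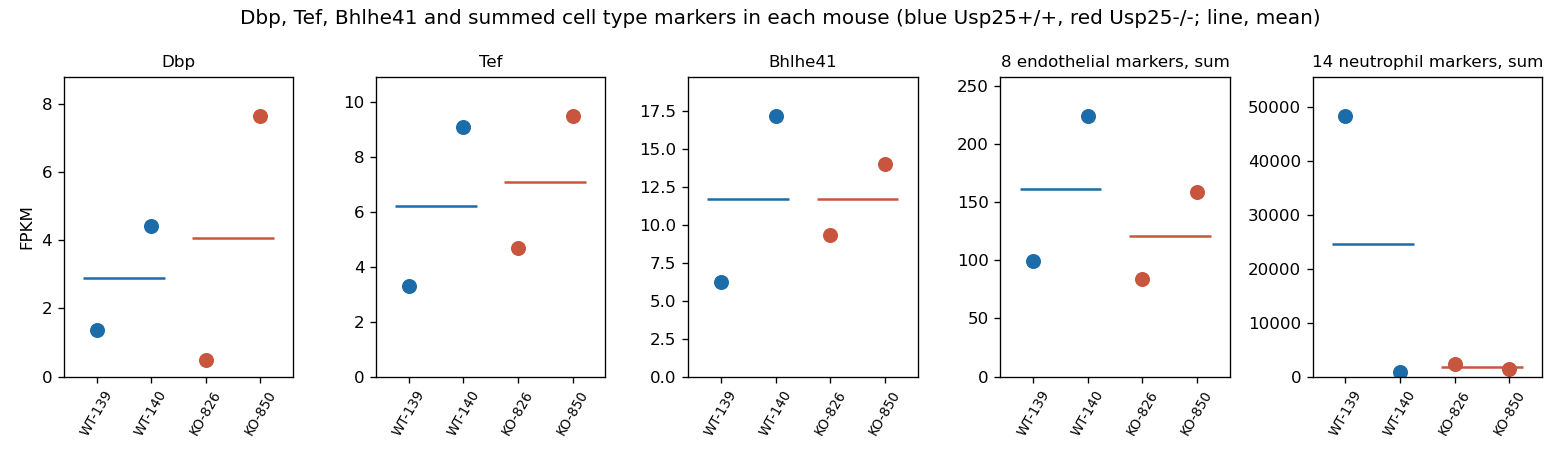
Levels of Dbp, Tef and Bhlhe41, and the summed levels of 8 endothelial and 14 neutrophil markers, in FPKM on linear axes from 0, with 1 point for each mouse and a line at the mean of a genotype. The first 4 panels share the higher pair of mice, WT-140 and KO-850, whereas the neutrophil sum sets mouse WT-139, at 48276 FPKM, against the other 3.

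Dbp and Arntl sit on opposite arms of the loop, and their ratio in FPKM within a library does not depend on its scale factor. Dbp was 0.246 and 1.02 times Arntl in the Usp25+/+ mice and 0.157 and 2.82 times Arntl in the Usp25-/- mice, in FPKM. Mice WT-139 and KO-826 were low and mice WT-140 and KO-850 high, with each genotype holding 1 of each. The difference of their log2(FPKM + 1) values still depends on scale through the added 1. Its mean was -0.72 in Usp25+/+ and -0.13 in Usp25-/- mice. An exact two-sided permutation test over the mice gave p = 1, where 2 mice against 2 cannot go below 0.333. After median-of-ratios scaling or quantile normalization the same permutation test gave p = 0.667. Nr1d1, also on the arm opposite to Arntl, was 0.781 and 2.35 times Arntl in Usp25+/+ and 2.80 and 4.24 times in Usp25-/- mice. Here the genotypes did not overlap, which was also so for Arntl alone, whereas Nr1d1 alone overlapped. Mouse WT-139 was the only mouse with less Nr1d1 than Arntl. This ratio was looked at after the values were seen and was not tested.

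Mouse WT-139 was the extreme mouse for most of the 10 genes. It was the highest for 4 (Arntl, Per1, Per2 and Cry1), against 29.7% of all tested genes, and the lowest for 4 (Per3, Cry2, Nr1d1 and Nr1d2), against 39.2%. These 8 of 10 genes compare with 68.9% of all tested genes for which that mouse was highest or lowest. The count is therefore close to that of the whole library, which also held most of the neutrophil RNA. Neutrophil markers moved with this pattern, in that 12 of 12 tested markers were highest in mouse WT-139. Their part in the clock gene levels was not tested. Without that mouse the median log2 difference over the 10 genes was -0.03, and limma called 0 of the 10.

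**Figure D3:**
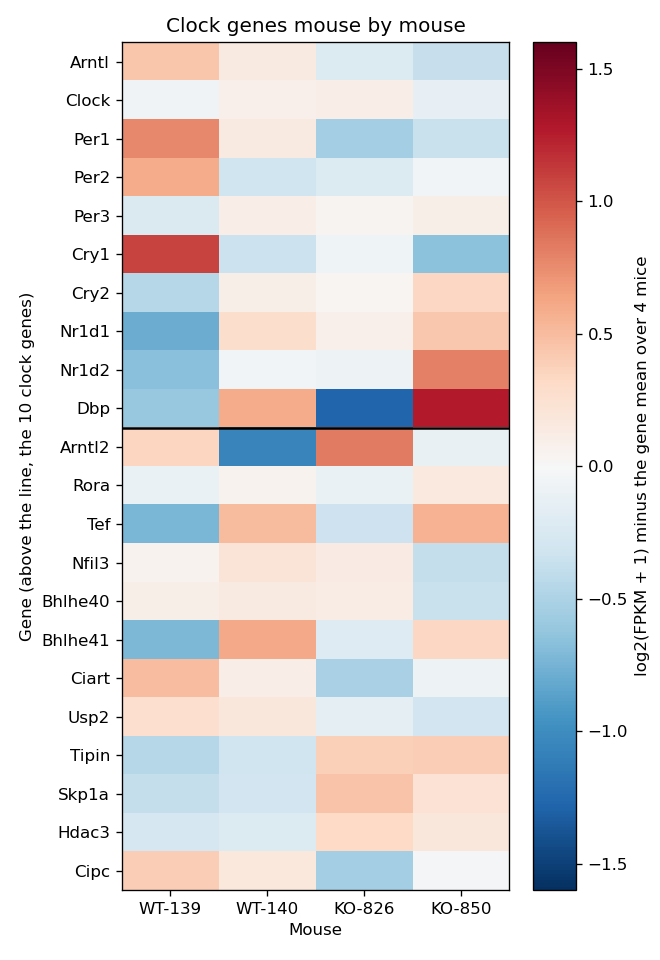
Colour gives log2(FPKM + 1) minus the mean of the gene over the 4 mice, for the 10 clock genes (above the line) and 12 other clock-associated genes (below it), with mice along the horizontal axis. Mouse WT-139 is high for Arntl, Per1, Per2 and Cry1 and low for Nr1d1 and Nr1d2, and Dbp has its extremes in mice KO-826 and KO-850.

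A wider list of 47 genes that build, modify or read the clock showed no call either. All 47 were in the table and 41 were tested, of which limma called 0 in either direction. The genotypes did not overlap for 8 higher and 6 lower, 14 of 41, near the 33.7% of all genes tested. The median log2 difference was -0.07. Of the 4 genes named for the smallest p, Tipin, Skp1a and Hdac3 were higher in both Usp25-/- mice and Cipc was lower. Tipin, a partner of TIMELESS at the replication fork, stood at 4.88 and 5.49 against 9.48 and 9.65 FPKM, with a log2 difference of 0.77 ± 0.27 (SE) and a limma adjusted p of 0.968. Skp1a, a subunit of the ubiquitin ligases that degrade CRY and PER proteins, stood at 58.5 and 61.4 against 105 and 89.6 FPKM. Hdac3, the deacetylase through which NR1D1 represses its targets, stood at 18.5 and 19.2 against 28.4 and 25.6 FPKM.

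Some genes that repress CLOCK and ARNTL or are driven by them were lower in both Usp25-/- mice, and others were not. Cry1, Per2, Dbp, Tef and Bhlhe41 overlapped between the genotypes. So did Cry2, Nr1d1 and Nr1d2, whose log2 differences were positive. Ciart, the gene with 3 E-boxes in its printed stretch, gave 4.37 and 3.11 FPKM with Usp25 intact and 1.66 and 2.59 FPKM without it. Cipc, which encodes a protein that binds CLOCK and inhibits it, stood at 8.62 and 7.21 against 4.02 and 6.19 FPKM. Usp2, a clock-controlled ubiquitin-specific protease, stood at 3.85 and 3.54 against 2.65 and 2.25 FPKM. The genotypes did not overlap for any of the 3. They belong to the 6 genes lower without overlap among the 41 tested of the wider list, against 14.7% of all genes tested. Their log2 differences were -0.60, -0.56 and -0.45, each with a limma adjusted p of 0.968. Per1, Ciart and Cipc carry E-box letters in at least 1 of their promoter windows, and none were found in that of Usp2. Cry1, Tef and Bhlhe41 carry them too and overlapped between the genotypes, with log2 differences of -0.73, 0.23 and 0.12. The part of these letters in the differences was not tested.

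**Figure D4:**
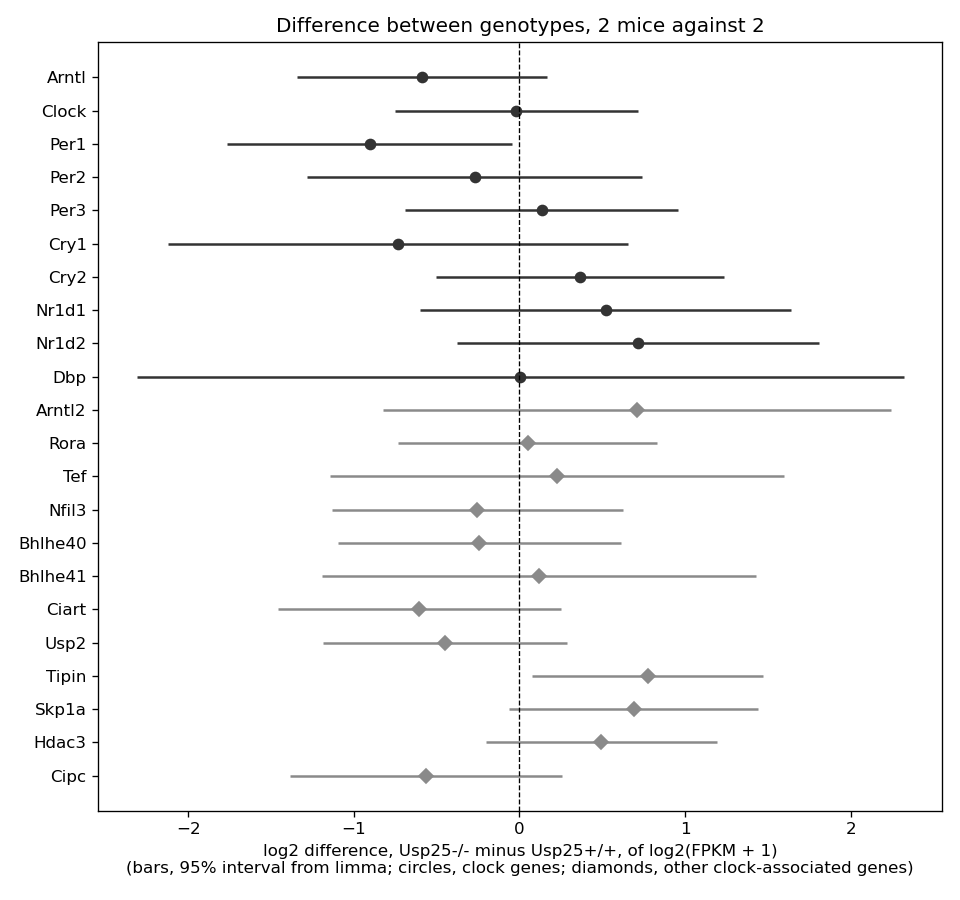
Log2 difference, Usp25-/- minus Usp25+/+, of log2(FPKM + 1) for the 10 clock genes (circles) and 12 other clock-associated genes (diamonds), with 95% intervals from limma. The intervals of Per1 and Tipin leave out 0 before adjustment, that of Dbp runs from -2.31 to 2.32, and no gene shown passed the adjusted threshold.

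Genes whose pattern over the 4 mice was most like a clock gene were looked up by the root mean square distance between log2(FPKM + 1) values, each centred on its own mean. Genes with Gm, Rik, Mir, Snor or LOC names were left out of this search. Ksr1, a scaffold of RAS signalling, was nearest to Per1 at a distance of 0.02, with 4.96 and 2.72 against 1.36 and 1.68 FPKM. Fam160b1 was nearest to Arntl, also at 0.02, and Pde4b, a cyclic AMP phosphodiesterase, was nearest to Cry1 at 0.06, with 152 and 62.5 against 73.5 and 47.7 FPKM. For Dbp none of the genes searched came close. The nearest, Lypd2, was at a distance of 0.25 and was listed at 0 in mice WT-139 and KO-826. The nearest to the others were Bms1 for Clock, Cap1 for Per2, Bub3 for Per3, Oxnad1 for Cry2, Aven for Nr1d1 and Hnmt for Nr1d2, at 0.03 or less.

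Among the clock genes themselves, the one nearest to Nr1d2 was its paralogue Nr1d1, at a distance of 0.27, and 1.73% of all tested genes were closer. Nearest to Nr1d1 was Cry2, at 0.20. Per1 was the clock gene nearest to Arntl, at 0.23, and 8.92% of all tested genes were closer. With 4 mice and 12103 genes, such closeness is a description of these libraries.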

How the data were processed

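Levels were measured by polyA RNA-seq in 4 mice, 2 per genotype, grouped by their labels. The authors deposited 1 table of FPKM values with 1 column for each mouse. Bowtie 0.12.2 and build mm9 are named per the submitters' processing notes, and no source used here names the tool that computed FPKM, its annotation or its strand setting. Column sums ran from 525993 to 565007 FPKM. Depth is unknown: among genes with 1 exon, at most 3.36% of the FPKM times length values sat on 1 value, so whole reads were not recovered.

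Symbols turned into dates (27) were left out. Genes with at least 1 FPKM in at least 2 mice (12103) were fitted as log2(FPKM + 1) with limma 3.58.1 in R 4.3.3 (moderated test with a mean-variance trend, two-sided, Benjamini-Hochberg over all genes tested, threshold 0.05, no covariate). Nothing in the labels names litters or batches, so p-values rest on the spread between these 4 mice alone. The moderated test also borrows the variance of other genes, with 3.24 prior degrees of freedom beside 2 residual ones. The fit was also run on simulated data, and the outcome is not given here. Positions are from Gencode in mm9 and sequences from RefSeq in GRCm38.p6, read with Python 3.11.15 and pandas 2.3.3, and plots used matplotlib 3.10.9.

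The 10 genes and all lists were chosen with earlier results of these data known. Named genes are the 10, Usp25, 11 fixed clock-associated genes (1 of them not reported here), the 4 others of that list with the smallest p, the 2 most abundant genes of a list where it moves with a result, and the gene nearest in pattern to each of the 10. Lcn2, Sphk2, Thra, Vwf, Lgals4, Krt20 and the colon markers at 0 were named after their values were seen. Alternatives covered the pseudocount, filter, scaling, variance trend and leaving out each mouse.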

Additional observations from a re-analysis of the deposited data

How the results depend on the processing

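No setting called any of the 10 clock genes. Of the 10, 5 kept their direction in every setting run on them (Arntl, Per1, Cry1, Cry2 and Nr1d2), as did 8 of 12 other named genes. Reversals outside the leave-one-out fits were those of Dbp, from 0.00 to -0.27 (pseudocount 0.1), -0.079 (common total), -0.019 (median-of-ratios) and -0.0052 (quantile), and of Rora, from 0.05 to -0.0095 (quantile). Leaving out 1 mouse at a time gave log2 differences from -0.14 to 0.10 for Clock, -0.73 to 0.19 for Per2, -0.036 to 0.30 for Per3, -0.016 to 1.06 for Nr1d1, -1.26 to 1.27 for Dbp, -0.080 to 0.18 for Rora, -0.39 to 0.84 for Tef, -0.51 to 0.0058 for Nfil3 and -0.54 to 0.78 for Bhlhe41. In the same fits the median over the 10 genes ran from -0.13 to 0.17, and the Dbp minus Arntl difference between genotypes from -0.75 to 1.94. Genes with groups that do not overlap numbered 2 of 10 with all mice, 1 of the 5 that reached a mean of 5 FPKM (34.9% of all genes there), 4 without mouse WT-139 (73%), 8 without WT-140 (80.9%), 8 without KO-826 (52.9%) and 4 without KO-850 (60.7%). Calls over the whole table ran from 0 to 163, the 163 without mouse WT-140, with a lone Usp25+/+ mouse assumed to vary like the other group, and the cause was not tested. With all 4 mice 400 genes had an unadjusted p under 0.05. No paired analysis was possible because the labels give the mice of the 2 genotypes no shared numbers. With unknown depth, levels near 1 FPKM (Per3, Dbp in mouse KO-826, Npas2, Hlf) have no counting error attached.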
